A study of Mus musculus with 4 samples.

Results

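The question examined was where the loss of XBP1 and a matrilin-3 mutation, carried by the same chondrocytes, gave a transcript level other than the one their separate effects add up to. For each gene the log2 signals of the single mutants were added as differences from wild type, and the departure from additivity was the log2 signal of the double mutant minus this sum. A departure of 1 is therefore a double mutant signal that is 2-fold higher than additivity predicts, and a departure of -1 is one that is 2-fold lower. Each gene was read on its brightest probe set, and members were the genes whose mean log2 signal over the 4 arrays was not under the median of all genes, 9097 of 18193. The threshold lay at a signal of 112. *Trim63*, just inside, had a departure of 1.42, and *Erap1*, just outside, one of -0.65.

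Chondrocytes were isolated by collagenase from ribs of C57BL6/J mice at postnatal day 5, and RNA pooled from 3 extractions was hybridized to 1 Affymetrix Mouse430_2 array per genotype. Wild type mice carried intact *Xbp1* and *Matn3*. XBP1 null mice (Xbp1 Col2CreΔex2) lacked *Xbp1* exon 2 through Cre driven by the *Col2a1* promoter, so the deletion was limited to cells in which this promoter had been active. *Matn3* mutant mice (Xbp1 WT Matn3 V194D) carried the p.V194D knock-in, and double mutant mice (Xbp1 Col2CreΔex2 Matn3 V194D) carried both alterations. Litters were pooled, and no genotype had a second array. The departure used up all 4 values of a gene, so it has no error, no test was possible, and every count below describes these 4 RNA pools.

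Secretory cells sense misfolded proteins of the endoplasmic reticulum (ER) through IRE1, ATF6 and PERK, the sensors of the unfolded protein response (UPR). IRE1 splices the mRNA of *Xbp1* into that of an active transcription factor, ATF6 is cleaved to one, and PERK slows translation and raises ATF4. Chondrocytes secrete large amounts of collagen and proteoglycan, and matrilin-3 is a bridging protein of their matrix that misfolds and is retained in the ER when it carries this substitution. XBP1 and ATF6 act on ER stress elements in promoters, and ATF4 on CARE sites.

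The letters of these sites were sought in RefSeq promoters of build GRCm38.p6, from 250 bases before to 50 after the start, on both strands. Of the reported XBP1 and ATF6 targets that carried the ER stress element (CCAAT, a gap of 9 bases, then CCACG) wholly before the start, the 6 with the largest absolute departure are shown with the element in capitals, because XBP1 and ATF6 are known to act on it. It was found anywhere in the window in 3 of 30 XBP1 target and 7 of 15 ATF6 target promoters. Each window reads along the gene, so a match on the other strand appears as its reverse complement. They are given from the largest absolute departure to the smallest, and the last bases of the element overlap with the letters of the UPR element named below.
Creld2, chr15:88819508-88819550, + strand: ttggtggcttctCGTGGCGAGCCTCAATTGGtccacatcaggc
Dnajc3, chr14:118937815-118937857, + strand: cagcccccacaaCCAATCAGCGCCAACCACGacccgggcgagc
Canx, chr11:50325788-50325830, - strand: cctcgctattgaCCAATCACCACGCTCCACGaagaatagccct
Hspa5, chr2:34772013-34772055, + strand: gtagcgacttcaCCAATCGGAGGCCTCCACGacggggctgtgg
Pdia6, chr12:17266479-17266521, + strand: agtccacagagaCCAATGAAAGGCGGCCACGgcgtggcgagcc
Calr, chr8:84847063-84847105, - strand: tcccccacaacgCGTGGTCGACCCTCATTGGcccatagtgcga
Matches to the CARE letters (TGATGNAAN, in capitals), the motif of ATF4, were found in 8 of 27 promoters of the ATF4 list and 5 of 12 of the aminoacyl-tRNA synthetase list. Promoters of a chromosome set aside beforehand were left out of the choice of windows, for this motif and for the ER stress element. Among the rest, the 5 genes with the largest absolute departure and a match before the start are shown.
Vldlr, chr19:27216807-27216839, + strand: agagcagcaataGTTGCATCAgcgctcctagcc
Fgf21, chr7:45615610-45615642, - strand: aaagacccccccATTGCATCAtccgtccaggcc
Gars, chr6:55037958-55037990, + strand: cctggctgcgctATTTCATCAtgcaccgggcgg
Tars, chr15:11399659-11399686, - strand: gccaggagtcccGTTGCATCAgctggtt
Asns, chr6:7693212-7693244, - strand: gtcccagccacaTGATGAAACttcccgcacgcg

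Of the member genes, 460 (5.06%) departed by more than 2-fold above additivity and 690 (7.58%) by more than 2-fold below. The other 7947 members (87.4%) lay within 2-fold. By more than 4-fold, 27 members lay above and 151 below. The median departure was 0.08, with quartiles of -0.34 and 0.44, and 5040 members (55.4%) had a positive departure. Departures shrank with signal: of 5 bins of members, the dimmest had 11.1% above and 10.8% below, and the brightest 1.54% and 4.45%.
Of the 9097 members, 7450 had a promoter in the table. The ER stress element was found in 13 of them (0.174%, against 0.137% of all 27025 genes with a promoter), in 0 of 379 members more than 2-fold above additivity and in 2 of 533 more than 2-fold below. CARE letters were found in 2.58% of the members and 4.5% of all genes, in 1.32% of members above and in 4.69% of members below. The UPR element (TGACGTGG) was found in 1.22% of members, 0.528% of those above and 0.75% of those below, against 0.714% of all genes. A heat shock element (GAANNTTC, which reads the same on both strands) was found in 6.59%, 8.18% and 8.44% of the same groups, against 9.04% of all genes. A match of letters is a description of the window and not a bound site.

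**Figure D1:**
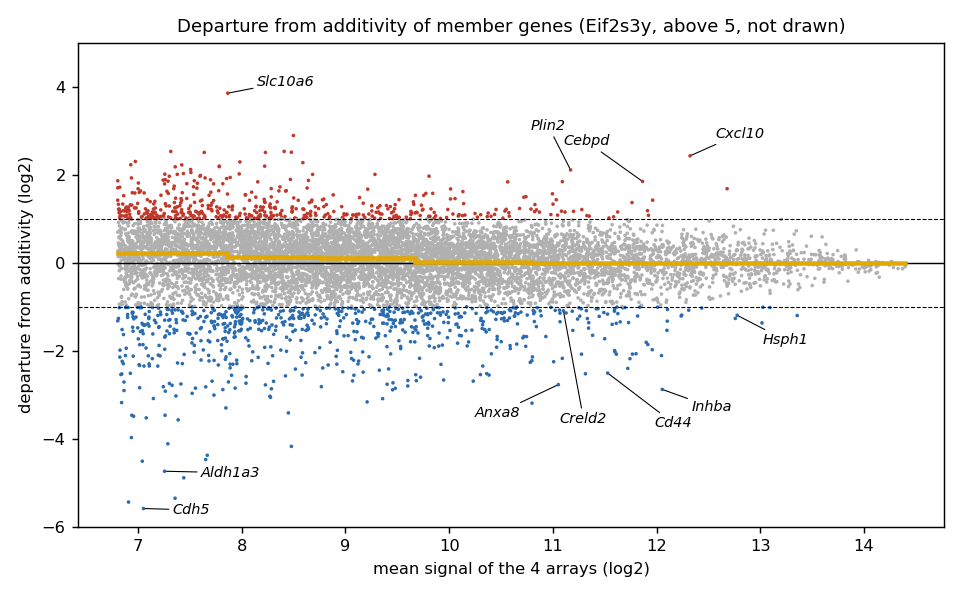
Departure from additivity (log2, vertical axis) against the mean log2 signal of the 4 arrays (horizontal axis) for the member genes, 1 point per gene. Red points lie over 2-fold above additivity (460 genes), blue points over 2-fold below (690 genes), dashed lines mark 2-fold, and the yellow steps are the medians of 5 equal bins by signal, which run from 0.22 in the dimmest to -0.0022 in the brightest. *Eif2s3y*, at 9.28, lies outside the axis.

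The arrays themselves were alike in scale, with a median of 43.8 on each and between 8.36% and 10.9% of values under 1. Cartilage transcripts were abundant on all 4: *Col2a1*, the main fibrillar collagen, read 10187 in wild type, 13435 in XBP1 null and 13380.1 in *Matn3* mutant, against 13571 in the double mutant, and *Acan*, the aggregating proteoglycan, 7475, 8242, 9275 and 10139 in the same order. *Xbp1* itself read 8183 in wild type, 7877 in XBP1 null and 11403 in *Matn3* mutant, against 9548 in the double mutant, and *Matn3* had 10185, 9945, 10462 and 10572 in the same order. Their departures were -0.20 and 0.05. Probe sets of this array type lie toward the 3' end of transcripts, so the *Xbp1* signal does not check the deletion of exon 2. The Y-linked *Eif2s3y* was the gene with the largest departure, 9.28, and its signal of 0.032 in *Matn3* mutant stood against 484 in wild type, 665 in XBP1 null and 855 in double mutant. With the floor raised to a signal of 5.52 it was 6.82, so the size depends on the floor. *Xist*, transcribed from the inactive X chromosome, had 7393 in wild type, 5262 in XBP1 null and 9718 in *Matn3* mutant, against 4101 in the double mutant, and the sexes of the pooled mice are not given by the labels. The part of sex in any other departure was not tested.

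A departure does not say which array carried it. In 138 of the 1150 departing members, 3 arrays lay within 1.5-fold of each other and the other one stood over 2-fold apart. Below additivity this was the wild type array on the low side in 71 genes, the XBP1 null array on the high side in 30, the double mutant on the low side in 4 and the *Matn3* mutant on the high side in 1. Above additivity it was the *Matn3* mutant on the low side in 18, wild type on the high side in 8, and the XBP1 null on the low side and the double mutant on the high side in 3 each. Departures carried by the double mutant alone were thus 7 of the 138. The wild type array enters every single mutant difference, so an error in it would move both of these and the departure together.

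In other members both single mutants lay outside wild type and double mutant by more than 1.5-fold, a separation set after these data had been seen. They were higher than both in 77 genes and lower in 32. For comparison, both *Matn3* mutant arrays were separated in this way from both arrays with intact *Matn3* in 59 genes upward and 93 downward, and both XBP1 null arrays from both with intact *Xbp1* in 65 upward and 7 downward. In another view, the *Matn3* mutant was more than 1.5-fold higher than wild type while the double mutant was as much lower than XBP1 null in 206 members, and the reverse held in 51. For the difference that XBP1 loss made on each *Matn3* background, the corresponding counts were 108 and 81. With a 2-fold separation, both single mutants lay outside on the high side in 8 genes and on the low side in 2.

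Where 4 signals stand together without labels, they run in the same order, with wild type first, XBP1 null next, then the *Matn3* mutant and last the double mutant. Several growth factors and cytokines were high in each single mutant and closer to wild type in the double mutant. *Inhba*, which encodes the subunit of activin A, read 2775 in wild type, 7577 in XBP1 null and 6473 in *Matn3* mutant, against 2403 in the double mutant, where additivity gives 17677. *Csf2*, the gene of the granulocyte-macrophage colony-stimulating factor, had 430.0 in wild type, 999.8 in XBP1 null and 1371 in *Matn3* mutant, against 441 in the double mutant. *Il11*, an interleukin of the gp130 family, had 727 in wild type, 2396 in XBP1 null and 1805 in *Matn3* mutant, against 1015 in the double mutant. Their departures were -2.88, -2.85 and -2.55, and in all 3 the single mutants were the 2 highest arrays.
The same order held for *Ccl5*, a chemokine, with 1935 in wild type, 4805 in XBP1 null and 5201 in *Matn3* mutant, against 2850.5 in the double mutant (departure -2.18). The prostaglandin E synthase gene *Ptges* (384, 806, 1315 and 738, departure -1.90) was highest in the *Matn3* mutant, while the chemokine gene *Cxcl12* (130.3, 491, 254 and 194, departure -2.30) and *Csf3*, which encodes the granulocyte colony-stimulating factor (67.8, 338, 136 and 156, departure -2.12), were highest in XBP1 null. Not all genes of this list lay below. *Cxcl10*, a chemokine that interferon induces, had 12053 in wild type, 2644 in XBP1 null and 4273 in *Matn3* mutant, against 5048 in the double mutant, so that wild type was the highest array and the departure was 2.43. *Nfkbie*, an inhibitor of NF-kB, was also highest in wild type (571, 209, 312 and 424, departure 1.89). Of 30 members in the list of NF-kB and inflammatory genes, 9 (30.0%, against 7.58% of all members) lay over 2-fold below additivity and 3 (10%, against 5.06%) above. The list median was -0.29. Of the 9 members among interferon response and antigen presentation genes, 3 lay above (33.3%, against 5.06%) and 1 below (11.1%, against 7.58%). Among those above was *Irf1*, an interferon regulatory factor, at 6725, 2872, 3384 and 3871 (departure 1.42). Of these 9 members, 2 reached the threshold of signal only through the XBP1 null array.

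Enzymes that cut the matrix and the cell surface followed. Among metalloproteinase, ADAM and TIMP genes, 9 of 23 members (39.1%, against 7.58% of all members) lay over 2-fold below additivity and 0 above, with a median of -0.74. *Adam19*, a membrane-bound sheddase, read 395 in wild type, 1291 in XBP1 null and 1182 in *Matn3* mutant, against 605 in the double mutant, a departure of -2.68. The stromelysin genes *Mmp3* and *Mmp10* had 1783, 2688, 4696 and 1679 and 210.0, 324, 400.3 and 125 in the same order of genotypes, with departures of -2.08 and -2.31. Both were lowest in the double mutant and highest in the *Matn3* mutant. *Timp3*, an inhibitor of these enzymes that binds to matrix, had 2535 in wild type, 6975 in XBP1 null and 4072 in *Matn3* mutant, against 3089.8 in the double mutant (departure -1.86), and its other 3 probe sets departed by -1.89, -1.83 and -1.22. *Adamts9* and *Adam10*, the latter a sheddase of Notch receptors, stood out through XBP1 null, with 107, 461, 138 and 168 and 309.7, 784, 299.8 and 345 (-1.82 and -1.14). *Mmp13*, the collagenase of hypertrophic cartilage, had 469, 515, 687 and 349.7 (departure -1.11) and was lowest in the double mutant. Among genes in the brightest 25% the list median was -0.20, with 3 of 14 members below. *Cd44*, the receptor for hyaluronan, read 1370.2 in wild type, 4738 in XBP1 null and 4390.0 in *Matn3* mutant, against 2669.8 in the double mutant, and its 3 probe sets above the median departed alike, by -2.51, -2.50 and -2.60.

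**Figure D2:**
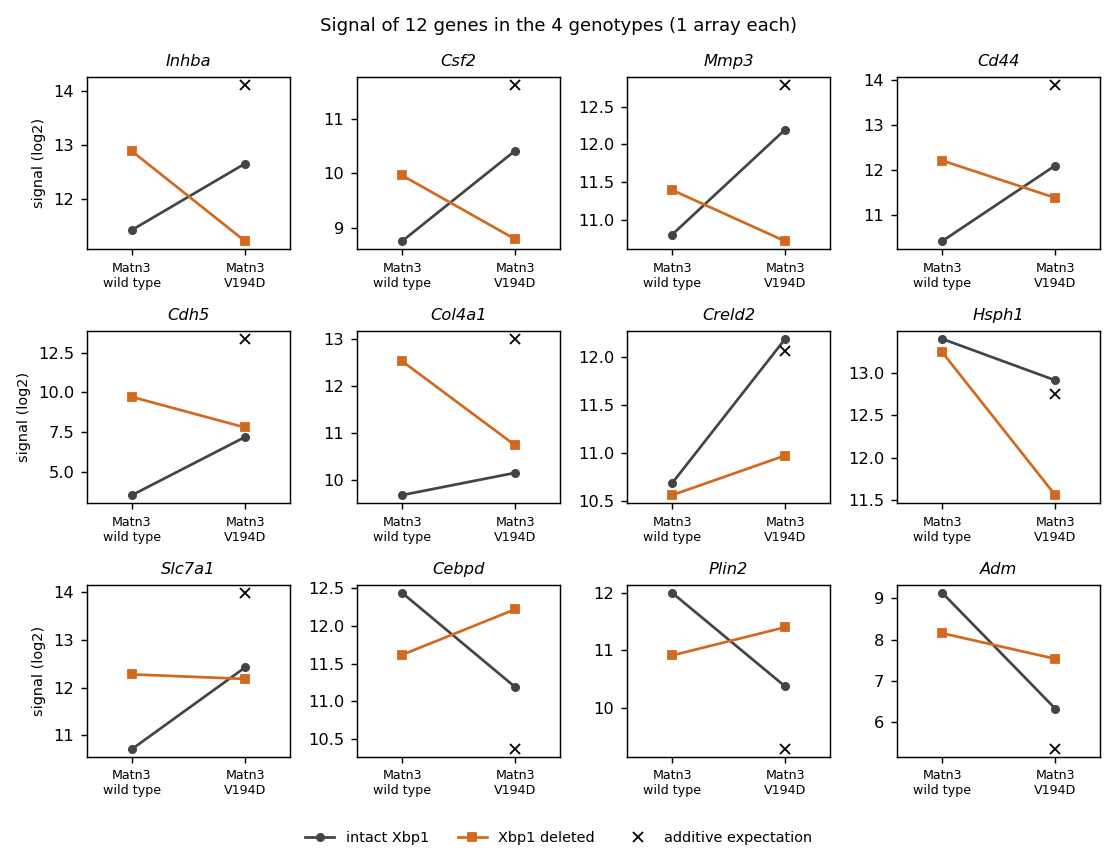
Log2 signal (vertical axis) of 12 genes with wild type *Matn3* (left) and *Matn3* V194D (right), on intact *Xbp1* (grey circles) and with *Xbp1* deleted (orange squares), 1 array per point. The cross marks the double mutant level that additivity gives, which lies above the double mutant in the first 9 genes and below it in *Cebpd*, *Plin2* and *Adm*.

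Receptor pathways of the growth plate came next. FGF signalling, which restrains chondrocyte division, had 5 of 17 members below (29.4%, against 7.58% of all members), 1 above and a median of -0.77. *Dusp4*, a phosphatase that switches off ERK, had 201 in wild type, 758 in XBP1 null and 125 in *Matn3* mutant, against 65.4 in the double mutant (departure -2.85), and the ERK phosphatase gene *Dusp5* 1089.9, 1765, 1963 and 1272 (departure -1.32). *Spry4*, a feedback inhibitor, had 104, 399, 406 and 334 (departure -2.23), so that on this probe set it was low only in wild type. Its next brightest probe sets departed by 0.28 and -1.04. The ligands *Fgf18* and *Fgf2* were highest in XBP1 null, with 247, 806, 331 and 318 (departure -1.77) and 167, 376, 274 and 250.2 (departure -1.30). The receptor *Fgfr4* (313, 209, 210.5 and 294) had a departure of 1.07. In Notch signalling 4 of 9 members lay below (44.4%, against the same 7.58%) and 1 above (median -0.96). These were the ligand *Jag1* (321, 956, 749 and 727, departure -1.62), the receptors *Notch1* (254, 694, 379 and 356, departure -1.54) and *Notch3* (161, 469.8, 207 and 259.7, departure -1.22) and the feedback regulator *Nrarp* (81.5, 175, 145 and 113, departure -1.47), against the glycosyltransferase *Rfng* above (275, 196, 129 and 199, departure 1.12). Wild type was the lowest array in all 4 of those below. Of the 9 Notch members, 2 reached the threshold of signal only through the XBP1 null array, as did 1 of the 17 FGF members. A high value on that array lowers the departure, so the choice of members favoured departures below additivity in these lists.
BMP and TGF-beta signalling had members at both ends, with 5 of 28 below (17.9%, against 7.58% of all members) and 2 above (7.14%, against 5.06%) and a median of 0.13. Besides *Inhba*, those below were *Ltbp1*, which holds latent TGF-beta in matrix (134, 413, 237 and 157, departure -2.22), *Bmp6* (589, 1018, 1121 and 672, departure -1.53), the activin antagonist *Fst* (119, 561, 133 and 232, departure -1.43) and *Tgfb2* (2211, 2524, 3788 and 2033, departure -1.09). Those above were the BMP antagonists *Grem1*, with 3354 in wild type, 1274 in XBP1 null and 952 in *Matn3* mutant, against 1292 in the double mutant (departure 1.84), and *Chrdl1* (698, 394, 767 and 1012, departure 1.22). *Grem1* was high in wild type alone. The secreted WNT antagonist *Sfrp2* had 1739 in wild type, 921 in XBP1 null and 439.7 in *Matn3* mutant, against 910.3 in the double mutant (departure 1.97). WNT signalling had 2 of 18 members in each direction (11.1%, against 7.58% of all members below and 5.06% above). Hedgehog and PTHrP signalling, which sets the pace of hypertrophy, had 0 of 12 members beyond 2-fold. Of the 12, 11 were positive (against 55.4% of all members), with a median of 0.37. The largest departure was that of *Evc2*, a component of the cilium (454, 348, 333 and 422, departure 0.73). Among insulin-like growth factor genes, *Igfbp3* lay below (135, 722, 91.5 and 231, departure -1.08) and the docking protein gene *Irs1* above (3948, 2389, 2611 and 3194, departure 1.02).

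Reported XBP1 and ATF6 targets are bright, with median signals of 2627 and 7211. In the brightest of the 5 bins by signal, 1.54% of members lay above additivity and 4.45% below. Of 37 members reported as XBP1 targets, 0 lay above, 1 lay below (2.70%, against 7.58% of all members) and the median was -0.14. Of 17 reported ATF6 targets, 0 lay above and 2 below (11.8%, against the same 7.58%), with a median of -0.18. Negative departures were found in 16 of 17, where 55.4% of all members were positive. For the ATF6 list the median difference from wild type was 0.04 in XBP1 null and 0.77 in *Matn3* mutant, with 0.57 in the double mutant. *Creld2*, an ER protein with disulphide exchange activity, had 1645 in wild type, 1509 in XBP1 null and 4667 in *Matn3* mutant, against 2009 in the double mutant, where additivity gives 4281 (departure -1.09). It is the first of the promoters printed above, and it was high in the *Matn3* mutant alone. *Pdia3*, a disulphide isomerase, had 5259 in wild type, 9044 in XBP1 null and 11986 in *Matn3* mutant, against 10180.4 in the double mutant (departure -1.02) and was lowest in wild type, while its other probe set departed by 0.33. The nucleotide exchange factor gene *Hyou1* had 273 in wild type, 257 in XBP1 null and 1022 in *Matn3* mutant, against 615 in the double mutant and *Sdf2l1*, a cofactor of BiP, 557 in wild type, 489 in XBP1 null and 2608 in *Matn3* mutant, against 1599.8 in the double mutant, with departures of -0.65 and -0.52. In both the double mutant lay between the *Matn3* mutant and the other arrays. *Dnajc3*, a cochaperone whose promoter is also printed, had 2109, 1769, 3525 and 2102 (departure -0.49). The remaining printed promoters belonged to genes close to additivity: *Canx* and *Calr*, the lectin chaperones (-0.15 and -0.04), *Hspa5*, which encodes BiP (13371, 14149.9, 20030.3 and 19811, departure -0.10), and the isomerase gene *Pdia6* (0.08).
Around this core, translocation and N-glycosylation genes had 0 of 30 members beyond 2-fold, and ER-associated degradation had 1 of 26, the ubiquitin ligase gene *Rnf5* above (329, 175, 108 and 228, departure 1.98). Transport from ER to Golgi had 1 of 35, the coat gene *Sec24a* below (1133, 2903, 3129.9 and 3304, departure -1.28). Among the UPR sensors and their proteases 2 of 10 members lay below (20%, against 7.58% of all members) and 0 above, with a list median of -0.10. These were *Atf6*, which had 187 in wild type, 509 in XBP1 null and 439 in *Matn3* mutant, against 405 in the double mutant (departure -1.57) and *Ern1*, which encodes IRE1, 465 in wild type, 922 in XBP1 null and 972 in *Matn3* mutant, against 754 in the double mutant (departure -1.36). Both were low only in wild type. Other probe sets above the median of all probe sets departed by -1.77 and -1.17 for *Atf6* and by -0.80 for *Ern1*.

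The ATF4 list had a lower median departure than the lists of XBP1 and ATF6 targets. Of its 32 members, 6 (18.8%, against 7.58% of all members) lay over 2-fold below additivity, 1 lay above and the median was -0.58. The median difference from wild type was 0.60 in XBP1 null and 0.78 in *Matn3* mutant, with 0.77 in the double mutant, where the sum of the single mutants would be 1.43. *Slc7a1*, a transporter of cationic amino acids, had 1676 in wild type, 4969.6 in XBP1 null and 5494 in *Matn3* mutant, against 4651 in the double mutant (departure -1.81), and *Psat1*, an enzyme of serine synthesis, 1014 in wild type, 1993 in XBP1 null and 2431 in *Matn3* mutant, against 2145 in the double mutant (departure -1.16). In both the 3 mutant arrays were alike and wild type was low. *Cth*, which makes cysteine from cystathionine, had 1955 in wild type, 3884 in XBP1 null and 3925 in *Matn3* mutant, against 2355 in the double mutant (departure -1.73), so that only the single mutants were high. *Vldlr*, a lipoprotein receptor with CARE letters in the promoter printed above, had 954, 2267, 2240.3 and 1668 (departure -1.67), and the secreted stanniocalcin gene *Stc2* 253, 765, 608 and 710.4 (departure -1.37). *Ppp1r15b*, which directs a phosphatase to eIF2α, departed by -1.26 (914, 1999.7, 1688 and 1547) and by 0.13 when probe sets with a suffix of possible cross-hybridization were left out. The exception above was *Fgf21*, a hormone of the fasting response, also with CARE letters, which was high in the double mutant alone at 142 in wild type, 140.4 in XBP1 null and 195 in *Matn3* mutant, against 599 in the double mutant (departure 1.64).
Aminoacyl-tRNA synthetases, which charge tRNAs and are induced by ATF4, had 5 of 18 members below (27.8%, against 7.58%) and 0 above. Of the 18, 15 were negative, where 55.4% of all members were positive, and the median was -0.63. *Cars*, the synthetase for cysteine, had 661 in wild type, 1238 in XBP1 null and 1222 in *Matn3* mutant, against 1014 in the double mutant (departure -1.17). The other 4 below were *Lars*, *Nars*, *Yars* and *Iars*, for leucine, asparagine, tyrosine and isoleucine, with departures from -1.08 to -1.01. *Gars* and *Tars*, for glycine and threonine, whose promoters are printed above, had 3121, 5759, 5883 and 5813 (departure -0.90) and 2196, 3292, 3110.0 and 2539 (departure -0.88). The list had median differences from wild type of 0.57 in XBP1 null and 0.60 in *Matn3* mutant, with 0.43 in the double mutant. *Asns*, which encodes asparagine synthetase, had 3221, 5627, 5942 and 5793 (departure -0.84). Among members with CARE letters in the promoter, 25 of 192 lay below additivity (13.0%, against 7.58% of all members) and 5 above (2.60%, against 5.06%). The shares below and above were 15.4% and 0% of the 13 members with the ER stress element, 4.40% and 2.20% of the 91 with the UPR element, and 9.16% and 6.31% of the 491 with the heat shock element.

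Some heat shock genes of the cytosol were lowest in the double mutant. *Hsph1*, the HSP110 exchange factor, had 10788 in wild type, 9677 in XBP1 null and 7695 in *Matn3* mutant, against 3016 in the double mutant, where additivity gives 6902 (-1.19), and its second probe set departed by -1.32. *Hspa1a*, the inducible HSP70, had 13399 in wild type, 11324 in XBP1 null and 12117 in *Matn3* mutant, against 6692 in the double mutant (departure -0.61). *Hsp90aa1*, the inducible HSP90, was also lowest in the double mutant (15468, 13706, 13484 and 10885, departure -0.13). Of the 8 members of the HSP70, HSP110 and HSP90 list, *Hsph1* alone lay beyond 2-fold, and the list median was -0.28. The small heat shock gene *Cryab* had 2955, 2060.0, 1289 and 667 (departure -0.43), within 2-fold of additivity. *Hspb7* was high in XBP1 null alone (117, 464, 151 and 147, departure -2.03), while its next brightest probe set departed by -0.07. Of 25 J-domain and HSP90 cochaperone genes 2 lay above (8%, against 5.06% of all members), *Ahsa2* (822, 393, 358 and 371, departure 1.11) and *Stub1*, the ubiquitin ligase CHIP (3453, 2734, 1668 and 2772, departure 1.07).

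**Figure D3:**
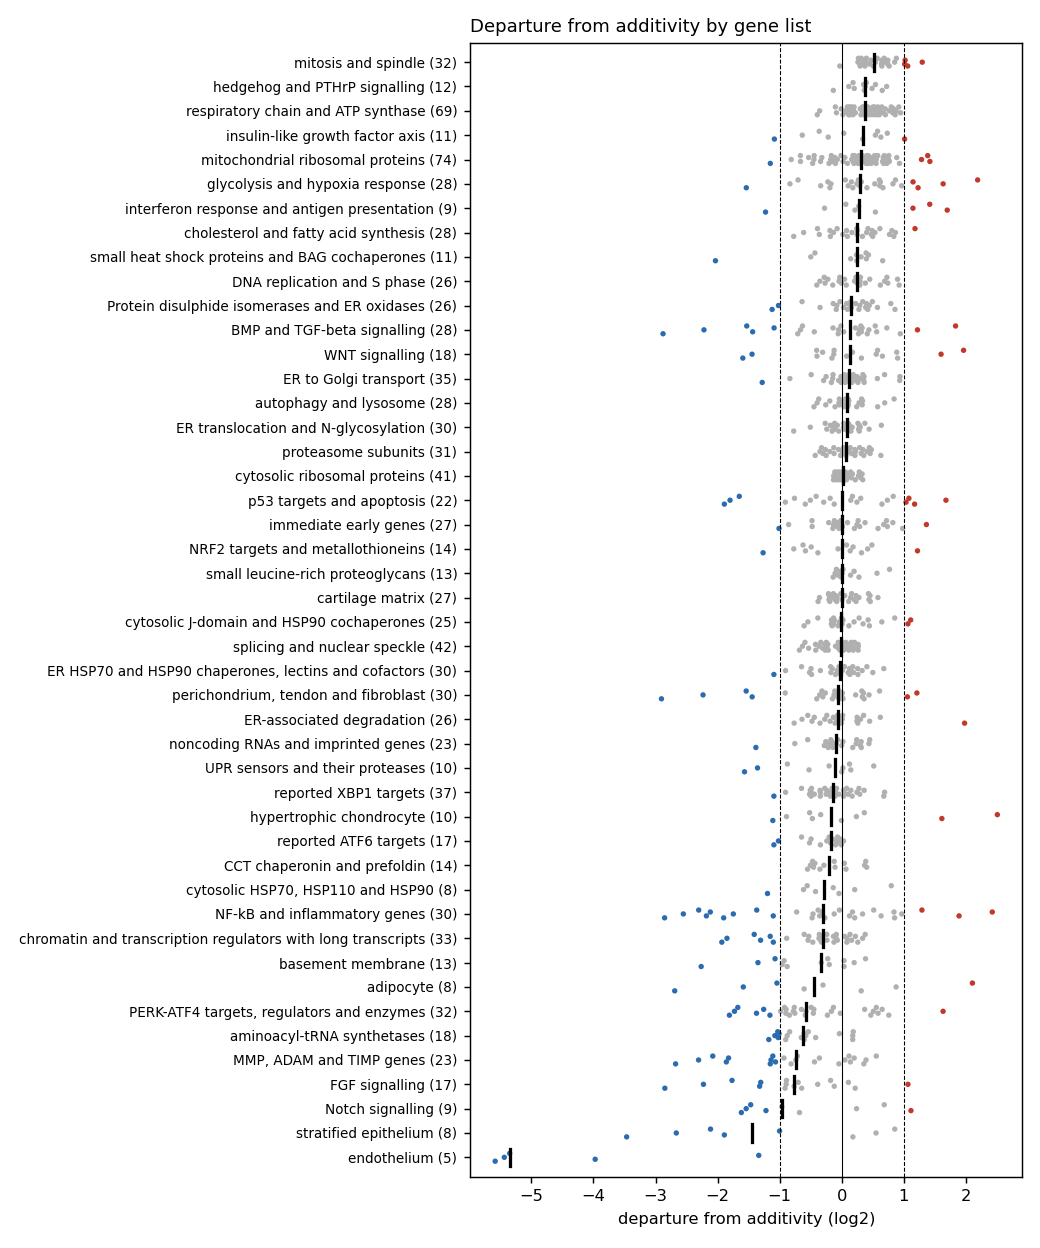
Departure from additivity (log2, horizontal axis) of each member in the gene lists with 8 or more members and in the endothelial list, 1 point per gene, with the number of members in brackets. The black bar is the list median, blue and red points lie over 2-fold below and above additivity, and the lists are ordered by this median, up to mitosis and spindle (median 0.53). The endothelial members reached the threshold of signal mostly through the XBP1 null array.

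Some lists lay above additivity in most members while few members passed 2-fold. Mitosis and spindle genes had 4 of 32 members above (12.5%, against 5.06% of all members) and 0 below. Positive departures were found in 31 of 32, against 55.4% of all members, with a median of 0.53. *Aurka*, a kinase of the spindle poles, had 319 in wild type, 191 in XBP1 null and 139.6 in *Matn3* mutant, against 206 in the double mutant (departure 1.30), and the checkpoint kinase gene *Bub1b* 243, 165, 114 and 161 (departure 1.07). *Plk1* and *Nek2*, kinases of mitotic entry and the centrosome, were the other 2 (1.02 and 1.02). Wild type was highest in all 4, and the list medians were -0.36 in XBP1 null and -0.76 in *Matn3* mutant, with -0.59 in the double mutant, against a sum of -1.18. DNA replication genes had 0 of 26 beyond 2-fold and a median of 0.24.
Mitochondrial genes were displaced together but by little. Of 69 members of the respiratory chain and ATP synthase, 0 lay beyond 2-fold and 64 were positive, against 55.4% of all members. The median was 0.37. The largest was *Ndufa8*, a subunit of complex I, with 1987 in wild type, 1607 in XBP1 null and 1240.4 in *Matn3* mutant, against 1939 in the double mutant (departure 0.95), where the *Matn3* mutant was lowest. Mitochondrial ribosomal proteins had 3 of 74 members above (4.05%, against 5.06% of all members) and 1 below (1.35%, against 7.58%). Of the 74, 56 were positive (median 0.32), and *Mrpl34* had 646, 415, 246 and 424 (departure 1.42). Both lists had the *Matn3* mutant as the low array, at medians of -0.43 and -0.37 from wild type, against -0.04 in double mutant for each. Cytosolic ribosomal proteins lay between -0.13 and 0.34 in all 41 members. Their median signal was 13772.5, against 685 for the mitochondrial ribosomal proteins, and departures shrank with signal.
Glycolysis and hypoxia genes had 4 of 28 members above (14.3%, against 5.06%) and 1 below. *Adm*, the vasodilator adrenomedullin, had 562 in wild type, 285 in XBP1 null and 79.9 in *Matn3* mutant, against 185 in the double mutant (departure 2.19). *Pfkl*, a phosphofructokinase, had 465 in wild type, 282 in XBP1 null and 239 in *Matn3* mutant, against 451 in the double mutant (departure 1.64), and *Aldoc*, an aldolase, 2092, 1376, 1273 and 1969 (departure 1.23). *Egln3*, an oxygen sensor that hydroxylates HIF, was the fourth (254, 148, 164 and 212, departure 1.15). In *Pfkl* and *Aldoc* the single mutants were low and the double mutant was within 1.5-fold of wild type, whereas *Adm* stayed below wild type in all mutants. *Ndrg1*, which hypoxia also induces, was the exception below, with 3365 in wild type, 5884 in XBP1 null and 5571 in *Matn3* mutant, against 3358 in the double mutant (departure -1.54).

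**Figure D4:**
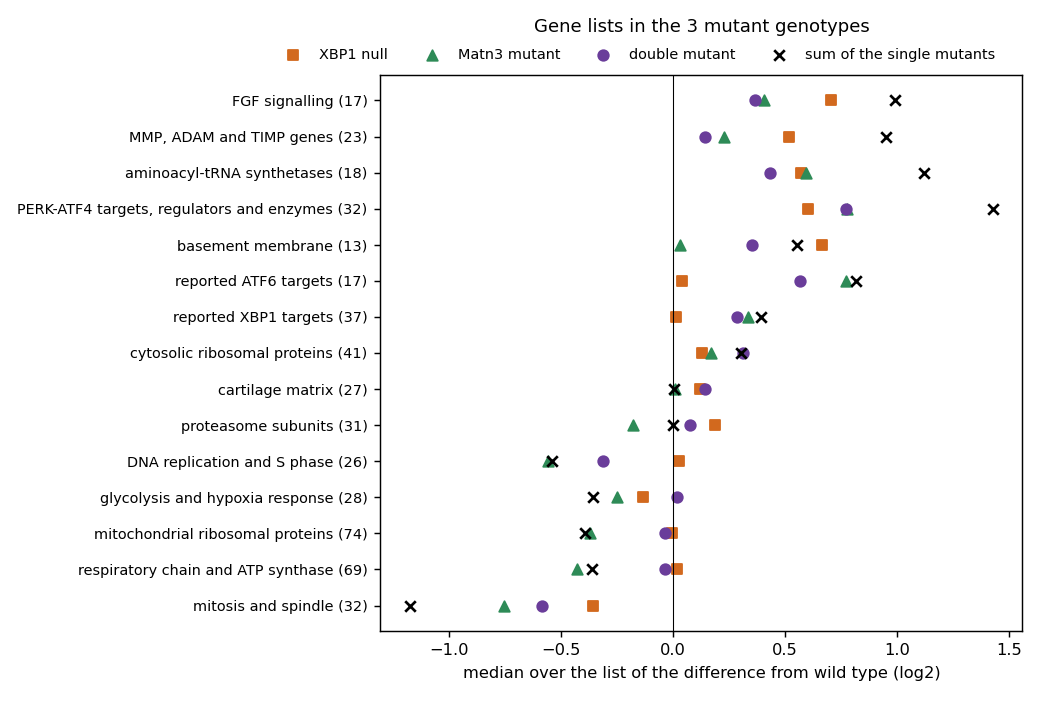
Median over the members of 15 gene lists of the log2 difference from wild type (horizontal axis) in XBP1 null (squares), *Matn3* mutant (triangles) and double mutant (circles), with the median of the sum of the single mutant differences (crosses). The circle lies left of the cross for PERK-ATF4 targets (0.77 against 1.43) and right of it for mitosis and spindle (-0.59 against -1.18). Medians over a list do not add, so this distance is not the median departure.

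Several single genes with large departures upward had both single mutants low. *Cebpd*, a transcription factor of the acute phase, had 5538 in wild type, 3137 in XBP1 null and 2335 in *Matn3* mutant, against 4760.2 in the double mutant (departure 1.85). *Plin2*, the coat protein of lipid droplets, had 4082 in wild type, 1926 in XBP1 null and 1327 in *Matn3* mutant, against 2702 in the double mutant (departure 2.11), and *Gadd45g*, a stress-induced gene, 9261 in wild type, 6575 in XBP1 null and 3652 in *Matn3* mutant, against 8320.2 in the double mutant (departure 1.68). *Panx3*, a channel of prehypertrophic chondrocytes, and *Ppp1r1b*, a phosphatase inhibitor, had 1628, 857, 839 and 1355 (departure 1.62) and 595, 268, 199 and 511 (departure 2.51). *Itpkc* (1.84) turned to -0.67 with the median over its probe sets. Across the 3 probe sets of *Hoxc6*, a homeobox gene, departures were between 1.28 and 2.81.
Downward, *Anxa8*, an annexin, had 744 in wild type, 5044 in XBP1 null and 2335 in *Matn3* mutant, against 2319.8 in the double mutant (departure -2.77), and *Hmga2*, an architectural chromatin protein of growing tissue, 348 in wild type, 1262 in XBP1 null and 1010.0 in *Matn3* mutant, against 552 in the double mutant, with departures between -3.51 and -2.18 on 4 probe sets. *Kitl*, the ligand of the KIT receptor, was high in XBP1 null alone (164, 1448, 189 and 204, departure -3.03). Genes with 3 or more probe sets above the median of all probe sets by mean log2 numbered 2027, and all probe sets lay over 2-fold below in 52 of them (2.57%) and over 2-fold above in 8 (0.395%). Of the other such probe sets of genes departing below, 538 of 600 (89.7%) were negative and 55.7% lay over 2-fold below. For genes departing above, 181 of 197 (91.9%) were positive and 48.2% lay over 2-fold above, against 50.4% positive, 6.17% above and 8.2% below over the 8139 other such probe sets of all members. These probe sets read the same 4 RNA pools and are not replicates.

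Cartilage matrix genes stayed within 2-fold of additivity. All 27 members lay between -0.38 and 0.59, with a median of 0.01. Their median signal was 8782, and few genes of such signal departed: in the brightest of the 5 bins 1.54% of members lay above and 4.45% below. *Col2a1* departed by -0.38, the chondrogenic transcription factor gene *Sox9* by -0.36 and *Acan* by -0.01. Small leucine-rich proteoglycans (0 of 13), proteasome subunits (0 of 31), autophagy and lysosome genes (0 of 28) and splicing factors (0 of 42) also had no member beyond 2-fold. Over all members the shares were 5.06% above and 7.58% below. The hypertrophic markers did not move together: *Col10a1*, the collagen of hypertrophic cells, had 831 in wild type, 1370.2 in XBP1 null and 250.1 in *Matn3* mutant, against 223 in the double mutant (departure -0.89), which is within 2-fold of additivity, while *Mmp13* lay below and *Panx3* and *Ppp1r1b* above. *Col1a1*, the collagen of bone and perichondrium, had 4591, 7001, 2398 and 4969.6 (departure 0.44).

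Large departures belonged to genes of other cell types. *Cdh5*, the cadherin of endothelium, had 11.5 in wild type, 838 in XBP1 null and 146 in *Matn3* mutant, against 221 in the double mutant (departure -5.58), and *Cldn5*, its tight junction protein, 21.3 in wild type, 853 in XBP1 null and 111 in *Matn3* mutant, against 103 in the double mutant (departure -5.44). *Aplnr*, *Esam* and *Egfl7* were the other endothelial members. Of these 5 members, 4 reached the threshold of signal only through the XBP1 null array, where they were high, so their departures were partly fixed by the choice of members, and the other 14 of the 19 markers did not reach it. Over all 19 the summed signal was 403 in wild type, 8559 in XBP1 null and 1149 in *Matn3* mutant, with 1926 in the double mutant. In wild type 5 of these 19 markers lay under the 25th percentile of the arrays, among them the defining *Pecam1* (0.14, 87.7, 0.33 and 0.53 in the 4 genotypes) and *Tie1* (0.6, 25.7, 1.01 and 4.36). In bulk RNA fewer cells of a type and less RNA per cell cannot be told apart.
XBP1 null was the high array for basement membrane genes too, of which 3 of 13 lay below (23.1%, against 7.58% of all members). *Col4a1*, a chain of type IV collagen, had 824 in wild type, 5937 in XBP1 null and 1144 in *Matn3* mutant, against 1716 in the double mutant (departure -2.26), and *Lamc1*, a laminin chain, 181, 488, 273 and 288 (departure -1.35). The fatty acid carriers *Fabp4* (493, 4285, 858 and 1154, departure -2.69) and *Cd36* (83, 2234, 242 and 361, departure -4.17) followed this order as well. Of 8 adipocyte members, which include *Fabp4* but not *Cd36*, 3 lay below (37.5%, against 7.58%) and 1 above (12.5%, against 5.06%). The 1 above was *Plin2* (departure 2.11), and 3 of the 8 were positive. *Adipoq*, the defining hormone of adipocytes, had 6.62, 28.1, 7.51 and 9.08. Stratified epithelium had 5 of 8 members below (62.5%, against 7.58%) and 3 with positive departures within 2-fold, *Sfn* (0.86), *Krt10* (0.56) and *Sprr1a* (0.18). Those below included the adhesion genes *Cdh1* (73.7, 319, 245 and 96.1, departure -3.47), *Epcam* (672, 2645, 927 and 575, departure -2.67) and *Dsp* (230.0, 548, 376 and 207, departure -2.11). The other probe set of *Epcam* departed by -0.67. The defining *Krt5*, *Krt14* and *Trp63* were below the median of all genes with no signal above 87.9, and of these *Krt5* was highest in the double mutant (65.1, 33.1, 62.3 and 84.8, departure 1.42). Summed epithelial signals were 6670 in wild type, 11108 in XBP1 null and 4499 in *Matn3* mutant, with 3568 in the double mutant. Of the 8 epithelial members, 1 reached the threshold of signal only through the XBP1 null array. Among perichondrium, tendon and fibroblast genes 4 of 30 lay below (13.3%, against 7.58% of all members) and 2 above (6.67%, against 5.06%), with summed signals between 130932 and 175042. *Fbln2*, a fibulin, was high in XBP1 null alone (69.3, 554, 67.2 and 71.7, departure -2.90). Of the 30 members 3, *Fbln2* among them, reached the threshold of signal only through the XBP1 null array, so their departures were partly fixed by the choice of members. Leukocyte and osteoclast markers summed to 4324, 9565, 7728 and 8227 in the order of genotypes given. Of their 6 members 2 lay below (33.3%, against 7.58%), *Cd14* (1961, 6133, 5115 and 4066, departure -1.98) and *Csf1r* (departure -1.01). The other members lay within 2-fold, 2 of the 6 were positive and the list median was -0.17. The defining *Acp5* was highest in wild type (303, 209, 121 and 148, departure 0.83). No erythroid marker was a member. The part of these cells in the departures of cytokine, FGF and Notch genes was not tested.

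Genomic span, which the rule did not use, differed between genes departing in the 2 directions. Members over 2-fold below additivity spanned a median of 41.0 kb, those over 2-fold above 14 kb and all members 25 kb (9074 of 9097 had a span). In the shortest of 5 bins, up to 8.55 kb, 9.09% of the members lay above and 5.84% below. In the longest bin, from 71.8 kb, 2.87% lay above and 13.7% below, and the median departure went from 0.28 to -0.11. The difference between *Matn3* mutant and wild type moved with span, from a median of -0.28 in the shortest bin to 0.07 in the longest, as did that between XBP1 null and wild type, from 0.02 to 0.25, whereas that between double mutant and XBP1 null stayed between -0.04 and 0.01.
Several lists lie at the ends of this scale. Chromatin and transcription regulators with long transcripts (median span 115 kb) had 6 of 33 members below (18.2%, against 7.58% of all members) and 0 above. Among them were *Hipk2*, a kinase of transcription factors (199.7, 513, 707 and 476, departure -1.93), and *Med13*, a Mediator subunit (903, 2255, 2176 and 1509.5, departure -1.85). Respiratory chain genes had a median span of 7.28 kb and mitochondrial ribosomal proteins of 7.69 kb. Taken relative to members of the same bin of span, a step added after these data had been seen, the median of the respiratory chain was 0.14, that of the mitochondrial ribosomal proteins 0.14, that of mitosis 0.40, and that of the long regulators -0.22. The corresponding values were -0.74 for the ATF4 list and for the aminoacyl-tRNA synthetases and -0.72 for metalloproteinases, ADAMs and TIMPs. Whether RNA quality or labelling differed between the arrays was not tested.

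**Figure D5:**
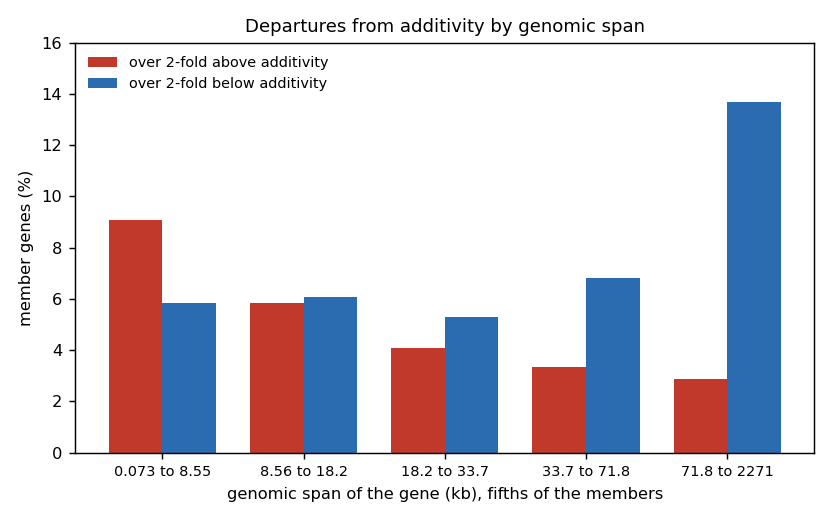
Share of member genes (%, vertical axis) that lay over 2-fold above (red) and over 2-fold below (blue) additivity, in 5 equal bins of the members by genomic span in kb (horizontal axis). From the shortest to the longest genes the share above goes from 9.09% to 2.87% and the share below from 5.84% to 13.7%.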

How the data were processed

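Costal chondrocyte RNA of 4 genotypes was measured on 1 Affymetrix Mouse430_2 array each. The authors deposited linear probe set intensities of 45037 probe sets. Their methods name Microarray Suite 5 for control hybridizations and PPLR for their own comparisons. The sources used here do not say how probes were summarized or scaled. Samples were grouped by their titles. Values under 1 were set to 1, log2 was taken, and no further scaling was applied. Of the probe sets, 34945 name 1 gene, 932 name several and 9160 name none, and those that name several or none were left out. A gene was its brightest probe set by mean log2. A departure counted when it exceeded 2-fold, without a test, since 1 array per genotype leaves no error. The number of arrays limits the precision. Genomic spans and promoters came from RefSeq tables of GRCm38.p6.

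The members and the 52 gene lists were chosen with earlier results of these data known. Named genes were *Xbp1* and *Matn3*, the 10 largest departures in each direction among members and among members in the brightest 25%, genes with 3 or more agreeing probe sets, up to 8 members of each described list, its defining markers, and genes with printed promoters. *Hspa5*, *Pdia6*, *Canx* and *Calr* fall under the last of these. Alternatives were centring, quantile normalization, another floor, other choices of probe set, genes and fold, and, added later, comparison within 5 bins of span. The calculation was tested on simulated data. Python 3.11.15, numpy 2.4.6, pandas 2.3.3 and matplotlib 3.10.9 were used.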

Additional observations from a re-analysis of the deposited data

Results flagged for a closer look

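In 56 member genes, of which 26 are among the 405 genes chosen by the naming rule and are given here, the *Matn3* mutant and wild type differed by more than 2-fold in one direction, while the double mutant and XBP1 null differed by more than 2-fold in the other. With 1 array per genotype the difference between the backgrounds was not tested. Endothelial genes lead these by departure, with *Cdh5* at -5.58, *Cldn5* at -5.44, *Aplnr* at -5.35, *Cd93* at -4.89 and *Esam* at -3.97. Of the 5 members of the endothelial list, 4 passed the signal threshold only because of their high XBP1 null value. Such a value lowers the departure, so the place of these 4 at the top was partly fixed by the choice of members. The same holds for *Aldh1a3*, named below, which read 642 on that array and at most 188 on any other. *Cd93* is not in the endothelial list, and how it reached the threshold was not examined. The fatty acid carrier gene *Cd36* stood at -4.17 and *Cavin2*, which encodes a caveolar coat protein, at -4.11. The epithelial cadherin gene *Cdh1* stood at -3.47. The secreted factors in this set were *Inhba* at -2.88, *Csf2* at -2.85, *Il11* at -2.55 and *Csf3* at -2.12. Others below additivity were *Aldh1a3*, a retinaldehyde dehydrogenase gene, at -4.74, *Bpifc* at -4.47, *G530011O06Rik* at -3.19, *Frmd4a* at -3.09, *Tmem267* at -2.89, *Elovl7*, a fatty acid elongase gene, at -2.87, *Sipa1l2* at -2.80, *Anxa8* at -2.77, *Hmga2* at -2.73, *Adam19* at -2.68 and *Btbd11* at -2.55. Above additivity were *Slc10a6*, a transporter gene, at 3.85, *Ndufa4l2*, which hypoxia induces, at 2.89 and *Hoxc6* at 2.51.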

How the results depend on the processing

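No genotype has a replicate, and no array could be left out. No paired analysis was possible because each genotype has 1 array. The counts of 460 genes above and 690 below additivity changed with which genes were read and with the fold: they were 2210 and 2706 over all genes, 111 and 276 in the brightest 25%, 1616 and 1445 at 1.5-fold and 27 and 151 at 4-fold. Relative to genes of the same bin of span, 303 lay above and 745 below. Quantile normalization shared 440 of the 460 and 672 of the 690, the median over probe sets 330 and 453, and leaving out probe sets with suffixes of possible cross-hybridization 358 and 587. Over all other probe sets of the genes above, 81.4% were positive. The median departure kept within its tolerance in all 8 alternatives. Centring and the raised floor could change little, because every array had a median of 43.8 and 1 member had a value under that floor. Among the unchanged values counted next, each of them supplied 50 list medians, and they supplied 405 and 404 values of named genes. Of 395 list medians under alternatives 369 stayed within 1.2-fold, 24 moved further, and 2 turned: skeletal muscle to -0.56 over all genes and adipocyte to 0.0080 in the brightest 25%. Of 1928 values of named genes 1867 stayed within 1.5-fold, 59 moved further (45 of them with the median over probe sets and 13 without the suffixed probe sets), and 2 turned: *Itpkc* to -0.67 with the median over probe sets and *Ppp1r15b* to 0.13 without the suffixed probe sets. The cause was not tested.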

Other observations

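Other lists held a few departing members, where over all members 5.06% lay above and 7.58% below. Among p53 targets and apoptosis genes 4 of 22 lay over 2-fold above additivity (18.2%) and 3 below (13.6%). *Bbc3*, which encodes the pro-apoptotic PUMA, read 231 in wild type, 177 in XBP1 null and 178 in *Matn3* mutant, against 307 in the double mutant (departure 1.18), and the death receptor gene *Fas* 726 in wild type, 326 in XBP1 null and 543 in *Matn3* mutant, against 517 in the double mutant (departure 1.09). *Plk2*, a polo-like kinase gene, lay below with 2535 in wild type, 3743 in XBP1 null and 3372 in *Matn3* mutant, against 1587 in the double mutant (departure -1.65). Of 14 NRF2 targets and metallothioneins, *Nqo1*, a quinone reductase gene, lay above with 1012 in wild type, 755 in XBP1 null and 713 in *Matn3* mutant, against 1242 in the double mutant (departure 1.22), and *Srxn1*, which encodes sulfiredoxin, below with 4557 in wild type, 9660.0 in XBP1 null and 7704 in *Matn3* mutant, against 6791 in the double mutant (departure -1.27). Among 27 immediate early genes *Junb*, a subunit of AP-1, lay above with 4839 in wild type, 2894 in XBP1 null and 2597 in *Matn3* mutant, against 4006 in the double mutant (departure 1.37), and *Egr3* lay below (departure -1.01). Of 28 cholesterol and fatty acid synthesis genes *Mvd*, an enzyme of the mevalonate pathway, alone passed 2-fold, with 293 in wild type, 218 in XBP1 null and 254 in *Matn3* mutant, against 429.9 in the double mutant (departure 1.18). Of 26 disulphide isomerases and ER oxidases, *Ero1b*, an oxidase of the ER, lay below besides *Pdia3*, with 116 in wild type, 139 in XBP1 null and 235 in *Matn3* mutant, against 129 in the double mutant (departure -1.12).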
